A study of Mus musculus with 2 samples.

Results

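The immunity-related GTPases (IRGs) are a family of interferon-induced proteins, described here through the 7 mouse genes Irgm1, Irgm2, Igtp, Iigp1, Tgtp1, Tgtp2 and Ifi47. The genes were taken by symbol as members of the family, and all 7 were found once among the 31053 features of each count matrix. Leukocytes carrying CD45, a surface protein shared by white blood cells, had been sorted from tumours of C57BL/6 mice and profiled cell by cell in droplets, with RNA read at the 5′ transcript end. The mice were labelled Ythdf2 cKO, for a conditional knockout of a gene whose protein binds m6A-modified RNA and speeds its decay, or WT, with 1 library for each label. The tumour line, the Cre driver and its cell type, the age of the mice and any pooling of animals were not given in the sources used here. By its title, the series is about this m6A-binding protein in macrophages of the tumour.

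IRG proteins are large GTPases of the dynamin type that mouse cells make under interferon, above all interferon gamma, and that attack the membrane of vacuoles holding intracellular microbes such as Toxoplasma and Chlamydia. Irgm1, Irgm2 and Igtp, also called Irgm3, are the regulators: they sit on the cell's own membranes and hold the other members in their inactive, GDP-bound form. Iigp1 (Irga6), Tgtp1 and Tgtp2 (Irgb6) and Ifi47 (Irgd) are the effectors, which load onto vacuoles that lack the regulators. In macrophages the family is known as part of interferon-driven resistance to microbes, and the effectors find their target membranes with help from the conjugation proteins of autophagy.

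In GRCm38, 6 of the members lie on chromosome 11. In the GENCODE annotation Irgm1 spans chr11:48861968-48871683 on the minus strand, Tgtp1 chr11:48985327-48994172 and Tgtp2 chr11:49057194-49064206 on the same strand, and Ifi47 chr11:49076587-49096974 on the plus strand. Igtp at chr11:58199556-58207591 and Irgm2 at chr11:58199618-58222782 overlap on the plus strand. The RefSeq promoter table for GRCm38.p6 held 6 of the 7 members, all but Iigp1. In windows from 250 bases before to 50 after the start, the core of the interferon-stimulated response element, GAAANNGAAA on either strand, was found in 5 of these 6. It was found in 1131 of all 32851 promoters (3.44%). The gamma-activated sequence TTCNNNGAA, which is its own reverse complement in its fixed letters, was found in 4 of the 6 and in 2726 of all promoters (8.30%). The stretches holding the core are shown because they are what these promoters share in letters, 5′ to 3′ on the gene's strand and with the core in capitals. They lie at chr11:48871421-48871465, chr11:48992299-48992338, chr11:49064258-49064297, chr11:58199507-58199546 and chr11:58214898-58214937 in the order printed. The starts used for the windows are those of RefSeq and can differ from the ends of the GENCODE spans above. For Irgm1, Tgtp1 and Irgm2 the stretch lies inside the GENCODE span of the gene, and for Tgtp2 and Igtp it lies before it.
Irgm1: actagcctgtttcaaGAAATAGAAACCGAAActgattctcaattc
Tgtp1: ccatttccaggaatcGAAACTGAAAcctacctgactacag
Tgtp2: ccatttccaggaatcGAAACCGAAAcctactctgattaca
Igtp: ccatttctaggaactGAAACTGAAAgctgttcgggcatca
Irgm2: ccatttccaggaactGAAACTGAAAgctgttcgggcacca

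The capitals in Irgm1 hold 2 overlapping copies of the core. In Tgtp1, Tgtp2, Igtp and Irgm2 the gamma-activated sequence stands in the lower-case letters just before the core, without overlap. Ifi47 had neither set of letters in this window. Over the whole promoter window Igtp and Irgm2 were identical at 184 of 270 aligned bases (68.2%), and Tgtp1 and Tgtp2 at 151 of 292 (51.7%). A match of letters is a description of the window and was not measured as binding.

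Sequence likeness also bears on the counts. Of all 90-base windows of their annotated transcripts, 74.8% in Tgtp1 and 78.6% in Tgtp2 occur letter for letter in another gene, namely each other or the gene model Gm12185. The share was 6.13% in Igtp and 3.57% in Irgm2, each with the other, 0.958% in Ifi47, and 0 in Irgm1 and Iigp1. In the first 500 bases of the transcripts, at the end that was read, it was 47.15% in Tgtp1, 54.9% in Tgtp2, 17.4% in Igtp, 11.8% in Irgm2 and 2.16% in Ifi47. Values of Tgtp1 and Tgtp2 are therefore uncertain in level and as to which copy was counted, and those of Igtp and Irgm2 in part. How reads matching more than 1 gene were counted was not given in the sources used here.

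The library labelled cKO held 11398 barcodes and 121321782 unique molecular identifiers (UMIs, the count unit), and its median barcode had 7404 UMIs. For the library labelled WT these values were 14404, 128952491 and 4760. Filters kept 9865 cells labelled cKO and 12179 labelled WT. Of these, 7842 labelled cKO and 9103 labelled WT passed a gate on marker genes. The 7 members had 72831 UMIs in all barcodes labelled cKO and 29550 in those labelled WT. The libraries shared 43 barcodes. With 1 library per label there is no replicate and no test, so differences below describe these libraries. Brackets give exact 95% intervals that cover counting error only, and 1.5-fold is used as a size rule, applied to ratios after 1 CPM was added to each level. Levels are in CPM: the cells of a type were summed per library and scaled to 1000000 UMIs, and log2 ratios are of CPM labelled cKO over CPM labelled WT after adding 1 CPM to each.

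Ythdf2 itself went against its label. Its RNA was at 429 CPM in macrophage-like cells labelled cKO, against 80.1 CPM in those labelled WT, and at 388 CPM (cKO) against 54.0 CPM (WT) in monocyte-like cells. The ratio was above 1 in all 12 compared cell types, from 1.19 (0.815 to 1.75) in gamma delta T-like cells to 7.20 in monocyte-like cells, and its interval held 1 in gamma delta T-like and B-like cells. The deleted part of the gene and the position of the reads in it were not given in the sources used here, so this checks neither the label nor the deletion. Whether the 2 labels were exchanged was not tested, and with exchanged labels every ratio below would be turned over, so "higher" and "lower" below refer to the labels alone. After a value, cKO and WT in brackets name the label of its library.

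The cell types are ranges of marker levels and not sorted populations. The macrophage gate held 325 cells labelled cKO and 2637 labelled WT, of which 30.8% (cKO) and 8.84% (WT) lay within 1.5-fold of a threshold. Inside it, monocyte markers had a median rate of 32.02 UMIs per 10000 in cells labelled cKO and 12.5 in cells labelled WT. These markers are not found in monocytes alone: in CD8 T-like cells their median rate was 43.88 (cKO) and 19.66 (WT). Whether the macrophage gate labelled cKO held more monocyte RNA was not tested. The monocyte gate held 2653 (cKO) and 2038 (WT) cells, with 7.65% (cKO) and 11.97% (WT) near a threshold. RNA of other cell types was present in the gates, and its part in the results was not tested. Lyz2, a myeloid lysozyme gene, was in CD8 T-like cells at 3.76% of its monocyte level in the library labelled cKO and 3.35% in the library labelled WT, and C1qa, a macrophage complement gene, was at 3.11% (cKO) and 10.6% (WT) of its macrophage level. Irgm1 in CD8 T-like cells stood at 33.7% (cKO) and 44.8% (WT) of its monocyte level, above these shares. On the same scales, neutrophil-like cells had C1qa at 12.04% (cKO) and 28.47% (WT), and Irgm1 at 84.92% (cKO) and 42.71% (WT). Mature dendritic cell-like cells had C1qa at 9.095% (cKO) and 30.41% (WT), and Irgm1 at 51.45% (cKO) and 36.68% (WT). The share of C1qa thus differed between cell types, and the CD8 T-like values do not stand for other cell types or members. No cell type in the sort is known to lack IRG RNA, so a floor for the members themselves was not measured.

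In macrophage-like cells all 7 members were at least 1.5-fold higher in the library labelled cKO. Of the 8034 genes that reached 10 CPM in a library, 6.68% were higher by that rule and 5.44% lower. The median log2 ratio was 1.504 over the 7 members. Among the 5 members that reached 10 CPM, all of them higher by that rule, it was 1.61, against −0.04 over all genes that did. In monocyte-like cells all 7 were again higher, 6 of them members of at least 10 CPM, against 3.19% of 7405 genes higher and 1.62% lower. The median was 1.09 over the 7 members, 1.15 over those 6 and −0.08 over the 7405 genes. The filter asks for 10 CPM in either library, so it can admit a member through the library where it is high. Tgtp2 in monocyte-like cells passed it only in the library labelled cKO, at 10.8 CPM against 4.55 CPM (WT). The counts in both types stayed at 7 when cells near a gate threshold were left out, an alternative chosen after seeing the data. Cd3e, a T cell gene, was at 58.8 CPM (cKO) and 47.7 CPM (WT) in macrophage-like cells, and with no UMI of another lineage's defining markers allowed, 6 members were higher in macrophage-like and 7 in monocyte-like cells.

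**Figure D1:**
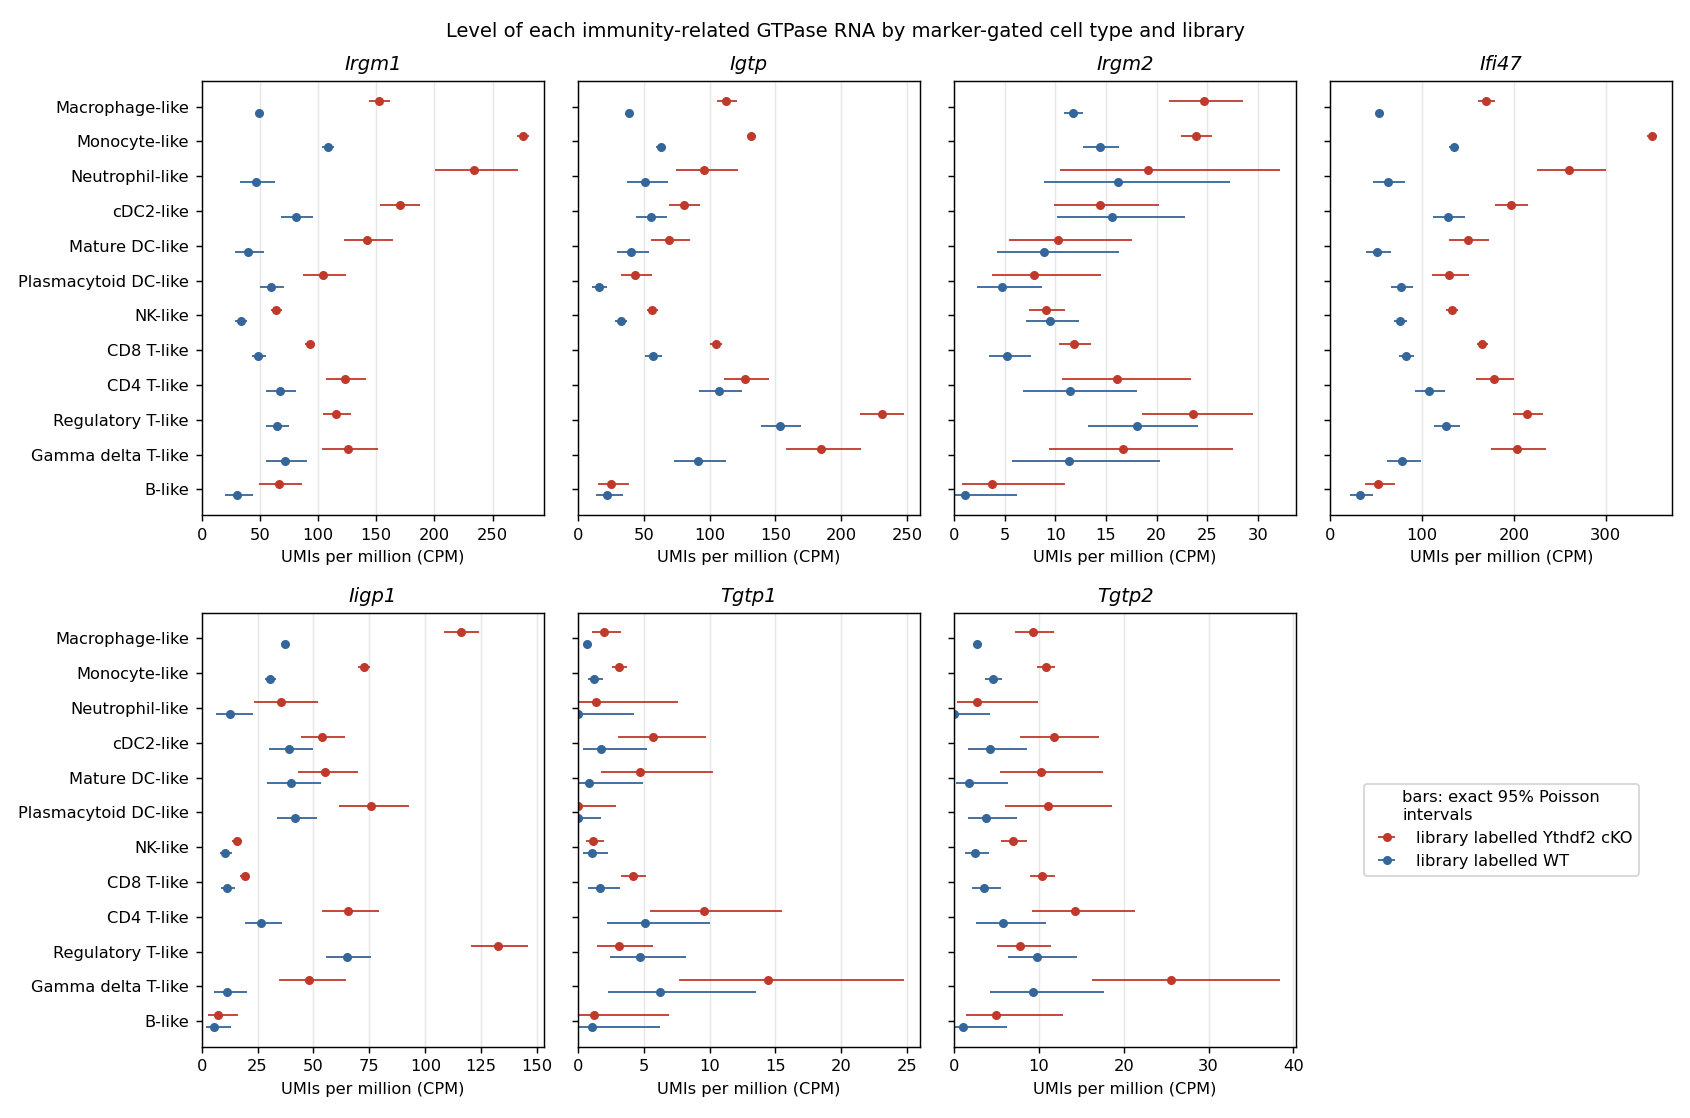
Level of each of the 7 genes (x axes, CPM, each panel with its own scale from 0) in 12 marker-gated cell types (rows) of the library labelled Ythdf2 cKO (red, upper point of each pair) and the library labelled WT (blue, lower point); bars are exact 95% Poisson intervals. Irgm1 and Ifi47 have their highest points in monocyte-like cells, Igtp and Iigp1 in regulatory T-like cells, and the red point lies right of the blue one for Irgm1, Igtp, Iigp1 and Ifi47 in all 12 cell types.

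Among the regulators, Irgm1, whose loss leaves mice open to mycobacteria and other vacuolar microbes, was at 152 CPM (144 to 162) in macrophage-like cells labelled cKO and at 49.3 CPM (47.4 to 51.2) in those labelled WT, a ratio of 3.09 (2.88 to 3.32). In monocyte-like cells it was at 276 CPM (cKO, 271 to 281) and 109 CPM (WT, 104 to 114), a ratio of 2.54 (2.42 to 2.67). Its ratio interval excluded 1 in all 12 cell types. The 2 largest ratios were 5.05 (3.56 to 7.32) in neutrophil-like cells, at 234 CPM (cKO) against 46.4 CPM (WT), and 3.56 (2.56 to 5.06) in mature dendritic cell-like cells, at 142 CPM (cKO) against 39.9 CPM (WT).

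In lymphocytes the Irgm1 ratios were close to one another. NK-like cells had a ratio of 1.91 (1.63 to 2.25) and CD8 T-like cells also 1.91 (1.68 to 2.18). It was 1.82 (1.44 to 2.33) for CD4 T-like, 1.79 (1.49 to 2.16) for regulatory T-like and 1.76 (1.29 to 2.41) for gamma delta T-like cells. B-like cells had 2.20 (1.36 to 3.64). All 6 intervals overlap, and the macrophage-like interval lies above those of 5 of the 6, all but B-like cells. With Leiden clusters in place of gates the log2 ratio of Irgm1 was 1.35 in macrophage-like and 1.23 in CD8 T-like cells, in place of 1.61 and 0.92, so the distance between these cell types depends on how cells were assigned. Plasmacytoid dendritic cell-like cells, at 104 CPM (cKO) against 59.7 CPM (WT) and a ratio of 1.75 (1.36 to 2.25), were just below the 6 lymphocyte ratios with an interval that overlapped all of theirs, and cDC2-like cells had 170 CPM (cKO) against 81.0 CPM (WT), a ratio of 2.10 (1.72 to 2.58).

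The order of Irgm1 levels had monocyte-like cells first in both libraries. In the library labelled cKO, neutrophil-like cells came next and their interval overlapped that of monocyte-like cells, followed by cDC2-like and macrophage-like cells, which did not differ beyond their intervals. In the library labelled WT, macrophage-like cells stood below 6 other cell types, at 49.3 CPM, with an interval overlapping those of plasmacytoid dendritic cell-like, CD8 T-like, neutrophil-like and mature dendritic cell-like cells. NK-like and B-like cells had the lowest levels in both libraries.

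Igtp, the regulator also known as Irgm3, had another order. Its level was highest in regulatory T-like cells, at 231 CPM (214 to 248) labelled cKO and 154 CPM (139 to 170) labelled WT, a ratio of 1.501 (1.33 to 1.70). Gamma delta T-like cells followed in the library labelled cKO, with 185 CPM (cKO, 158 to 215) against 91.0 CPM (WT, 73.0 to 112), a ratio of 2.03 (1.56 to 2.66). Macrophage-like cells had 113 CPM (cKO) against 39.1 CPM (WT), a ratio of 2.88 (2.66 to 3.12), and monocyte-like cells 132 CPM (cKO) against 63.0 CPM (WT), a ratio of 2.09 (1.96 to 2.23). In CD4 T-like cells the levels were 127 CPM (cKO) and 107 CPM (WT), a ratio of 1.18 (0.963 to 1.46) whose interval holds 1, and in B-like cells 24.99 CPM (cKO) and 22.3 CPM (WT), a ratio of 1.12 (0.572 to 2.19). In plasmacytoid dendritic cell-like cells, which had the lowest level labelled WT, Igtp was at 43.5 CPM (cKO) against 15.98 CPM (WT), a ratio of 2.72 (1.74 to 4.30).

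Irgm2, the third regulator, was lower in level and less uniform between the libraries. It was at 24.7 CPM (21.3 to 28.5) in macrophage-like cells labelled cKO and 11.7 CPM (10.8 to 12.7) in those labelled WT, a ratio of 2.10 (1.77 to 2.48). In monocyte-like cells it was at 23.9 CPM (cKO) and 14.4 CPM (WT), a ratio of 1.66 (1.44 to 1.91), and in CD8 T-like cells at 11.9 CPM (cKO) and 5.26 CPM (WT), a ratio of 2.25 (1.52 to 3.47). In NK-like cells, with 108 (cKO) and 54 (WT) UMIs, it was at 9.06 CPM (cKO) and 9.44 CPM (WT), a ratio of 0.960 (0.686 to 1.36), and in cDC2-like cells at 14.4 CPM (cKO) and 15.6 CPM (WT), a ratio of 0.923 (0.535 to 1.61). Its ratio interval excluded 1 in macrophage-like, monocyte-like and CD8 T-like cells and in none of the other 9 cell types.

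Among the effectors, Ifi47 followed Irgm1 most closely. It was at 170 CPM (161 to 180) in macrophage-like cells labelled cKO and 53.5 CPM (51.5 to 55.6) in those labelled WT, a ratio of 3.17 (2.97 to 3.40). Monocyte-like cells had the highest level in each library, 350 CPM (cKO, 344 to 356) and 134 CPM (WT, 129 to 140), a ratio of 2.60 (2.49 to 2.72). In the library labelled WT that interval overlapped those of cDC2-like and regulatory T-like cells, and in the library labelled cKO it overlapped none. Neutrophil-like cells had 260 CPM (cKO) against 62.6 CPM (WT), a ratio of 4.16 (3.06 to 5.73), and B-like cells, the lowest in both libraries, 52.5 CPM (cKO) against 32.3 CPM (WT), a ratio of 1.62 (0.987 to 2.70). The B-like ratio was the only one of 12 whose interval held 1.

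Iigp1, on chromosome 18, is the effector whose structure and assembly on vacuoles are best studied. It was highest in regulatory T-like cells, at 133 CPM (120 to 146) labelled cKO and 65.1 CPM (55.6 to 75.8) labelled WT, a ratio of 2.04 (1.70 to 2.45). Macrophage-like cells labelled cKO, at 116 CPM (108 to 124), overlapped with them. Those labelled WT, at 37.3 CPM (35.6 to 39.0), were below regulatory T-like cells. Their interval overlapped those of plasmacytoid dendritic cell-like, mature dendritic cell-like and cDC2-like cells, whose levels were slightly higher. The macrophage-like ratio was 3.11 (2.86 to 3.37). Monocyte-like cells had 72.7 CPM (cKO) against 30.7 CPM (WT), a ratio of 2.37 (2.16 to 2.60), CD4 T-like cells 65.6 CPM (cKO) against 26.7 CPM (WT), a ratio of 2.46 (1.71 to 3.60), and plasmacytoid dendritic cell-like cells 75.9 CPM (cKO) against 41.8 CPM (WT), a ratio of 1.81 (1.34 to 2.45). CD8 T-like cells, with 19.2 CPM (cKO) against 11.5 CPM (WT), and NK-like cells, with 15.6 CPM (cKO) against 10.7 CPM (WT), had low levels in both libraries. The gamma delta T-like ratio of 4.21 (2.13 to 9.04) rests on 43 (cKO) and 11 (WT) UMIs.

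Tgtp1 and Tgtp2, the pair with the most shared sequence, had the fewest UMIs, and reads in the shared sequence leave their levels uncertain. Tgtp2 was at 9.29 CPM (7.25 to 11.7) in macrophage-like cells labelled cKO and 2.77 CPM (2.33 to 3.27) in those labelled WT, at 10.8 CPM (cKO) and 4.55 CPM (WT) in monocyte-like cells, and at 10.3 CPM (cKO) and 3.57 CPM (WT) in CD8 T-like cells. The ratios were 3.36 (2.48 to 4.50), 2.38 (1.87 to 3.06) and 2.90 (1.81 to 4.92). In gamma delta T-like cells Tgtp2 was at 25.6 CPM (cKO, 16.2 to 38.4) against 9.31 CPM (WT, 4.26 to 17.7), its highest point in the library labelled cKO, and Tgtp1 was at 14.5 CPM (cKO) against 6.21 CPM (WT), its highest point in both libraries. In regulatory T-like cells both had ratios below 1 with intervals that hold 1, namely 0.660 (0.255 to 1.67) for Tgtp1 and 0.792 (0.436 to 1.44) for Tgtp2. Neither gene had more than 3 UMIs in neutrophil-like cells of either library, and Tgtp1 had 0 UMIs in plasmacytoid dendritic cell-like cells of both, so no ratio is given for them. With Tgtp1 and Tgtp2 summed to a single member, all members remained at least 1.5-fold higher in macrophage-like, monocyte-like and CD8 T-like cells.

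**Figure D2:**
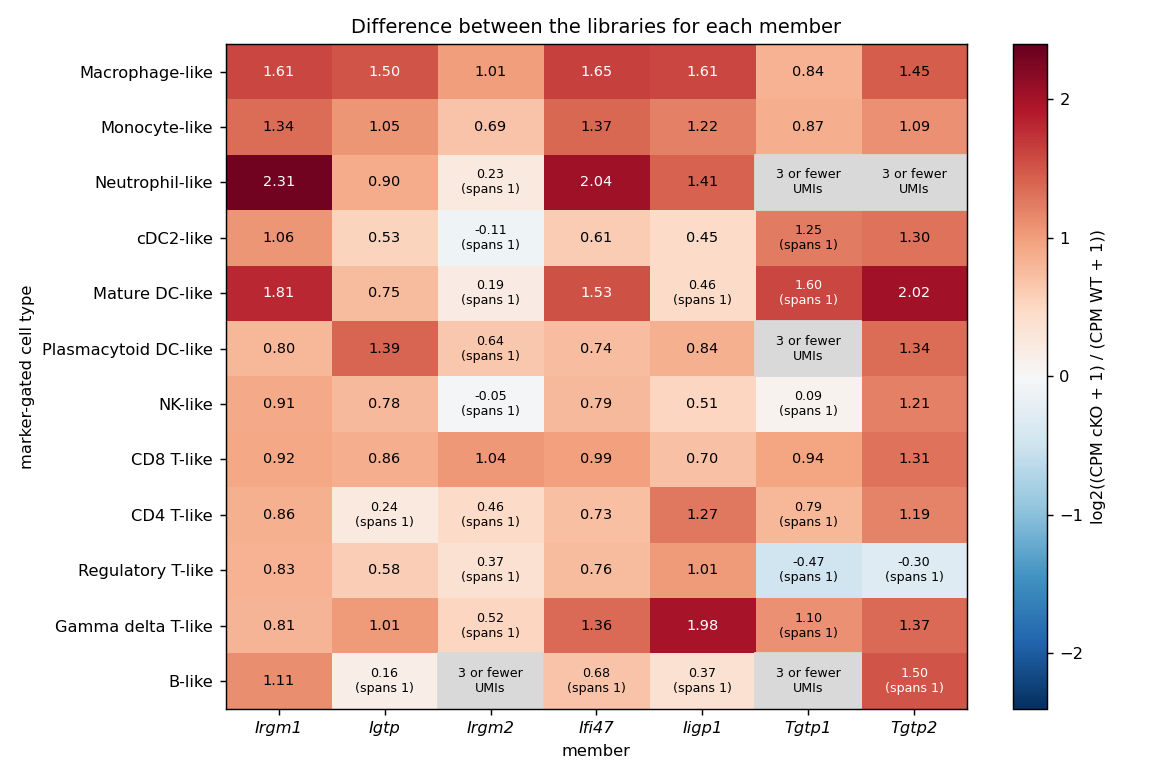
Log2 ratio of each member (columns) in each marker-gated cell type (rows), as CPM labelled cKO over CPM labelled WT after adding 1 CPM to each; red is higher in the library labelled cKO, "spans 1" marks a ratio whose exact 95% interval holds 1, and grey squares had 3 or fewer UMIs in each library. Macrophage-like, monocyte-like and CD8 T-like cells have no square that spans 1, and the 4 values below 0 (Irgm2 in cDC2-like and NK-like cells, Tgtp1 and Tgtp2 in regulatory T-like cells) all span 1.

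In the other 10 cell types the count of members at least 1.5-fold higher ran from 3 to 7, and in the main setting no member was 1.5-fold lower in any of the 12. In CD8 T-like cells, with 1875 cells labelled cKO and 773 labelled WT, all 7 were higher, against 5.87% of 8007 genes higher and 3.90% lower. Irgm2 and Tgtp2 reached 10 CPM there only in the library labelled cKO. When cell types were taken from Leiden clusters, with 1509 (cKO) and 335 (WT) cells, 3 of the 7 were higher and the median log2 ratio was 0.49 in place of 0.95 (members of at least 10 CPM), and with no UMI of another lineage's defining markers allowed, 4 were higher. In NK-like cells 4 of 7 were higher, and 3 of the 4 members of at least 10 CPM, against 2.48% of genes higher and 2.24% lower. In regulatory T-like cells 3 of 7 were higher, against 5.71% of genes higher and 4.56% lower, and these were Irgm1, Ifi47 and Iigp1, with Igtp, whose ratio without an added CPM was 1.501, just under the rule at a log2 ratio of 0.58 after adding 1 CPM. Lyz2 in these cells was at 7.60% (cKO) and 4.61% (WT) of its monocyte level, and Cxcl9, a chemokine gene of myeloid cells, at 244 CPM (cKO) against 55.7 CPM (WT). Among the 100 (cKO) and 61 (WT) regulatory T-like cells with no UMI of another lineage's defining markers, 3 members were again higher. These were Irgm2, Igtp and Iigp1 (log2 ratios of 1.81, 0.72 and 1.62), whereas Irgm1 was at 0.58 and Ifi47 at 0.53. Tgtp1, at −0.77, and Tgtp2, at −0.75, were more than 1.5-fold lower in these cells. Before this restriction Tgtp1 had 10 (cKO) and 12 (WT) UMIs and Tgtp2 had 25 in each library.

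In cDC2-like cells 4 of 7 members were higher (4.32% of genes of at least 10 CPM), as were 5 in mature dendritic cell-like cells (9.77%) and 6 in plasmacytoid dendritic cell-like cells (7.66%). Among members of at least 10 CPM, 3 of 6, 4 of 6 and 5 of 5 were higher. With no UMI of another lineage's markers allowed, the count among all 7 was 2 in cDC2-like and 3 in plasmacytoid dendritic cell-like cells. In CD4 T-like cells 5 were higher (6.26% of genes), and in gamma delta T-like cells 6 (10.0%), with 4 of 6 and 6 of 7 among members of at least 10 CPM. Tgtp2 in both types, and Tgtp1 in gamma delta T-like cells, reached 10 CPM only in the library labelled cKO. In neutrophil-like cells, with 68 cells labelled cKO and 185 labelled WT, 6 were higher (14.3% of genes), 4 of them among the 5 members with more than 3 UMIs in either library, and 3 after cells were thinned to equal depth. In B-like cells 4 were higher (8.98% of genes), 3 of them among the 5 members with more than 3 UMIs in either library, and 1 after thinning. Of the 3 members of at least 10 CPM there, 2 were higher.

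The difference between the libraries was also present in the share of cells with a UMI, in cells thinned to equal depth. In monocyte-like cells thinned to 5592 UMIs, which left out 171 shallower cells labelled cKO and 408 labelled WT, an Irgm1 UMI was found in 65.4% (63.5 to 67.3) of cells labelled cKO and 37.8% (35.4 to 40.2) of cells labelled WT. Without thinning, at median depths of 13166 (cKO) and 7519.5 (WT) UMIs, the shares were 83.4% (cKO) and 44.4% (WT). For Ifi47 the thinned shares were 71.4% (cKO) and 41.0% (WT), for Igtp 44.3% (cKO) and 26.4% (WT), and for Iigp1 16.6% (cKO) and 8.77% (WT). Macrophage-like cells thinned to 6770 UMIs, with 65 (cKO) and 527 (WT) cells left out, had Irgm1 in 54.6% (48.3 to 60.8) of cells labelled cKO and 25.7% (23.8 to 27.6) of cells labelled WT, and Iigp1 in 31.9% (cKO) and 14.3% (WT). Unthinned, Irgm1 was found in 70.5% (cKO) and 45.4% (WT) of macrophage-like cells.

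Regulatory T-like cells thinned to 2645 UMIs had Igtp in 49.4% (43.2 to 55.7) of cells labelled cKO and 31.1% (25.7 to 37.0) of cells labelled WT, with 11 (cKO) and 68 (WT) cells left out and unthinned shares of 79.1% (cKO) and 53.1% (WT). In CD8 T-like cells thinned to 3564 UMIs, with 78 (cKO) and 154 (WT) left out, Irgm1 was found in 26.0% (cKO) and 14.9% (WT) of cells. Unthinned, the shares were 44.8% (cKO) and 25.2% (WT). In B-like cells thinned to 1920 UMIs the Irgm1 shares were 10.4% (cKO, 6.55 to 15.5) and 4.58% (WT, 2.46 to 7.70), with intervals that overlap.

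**Figure D3:**
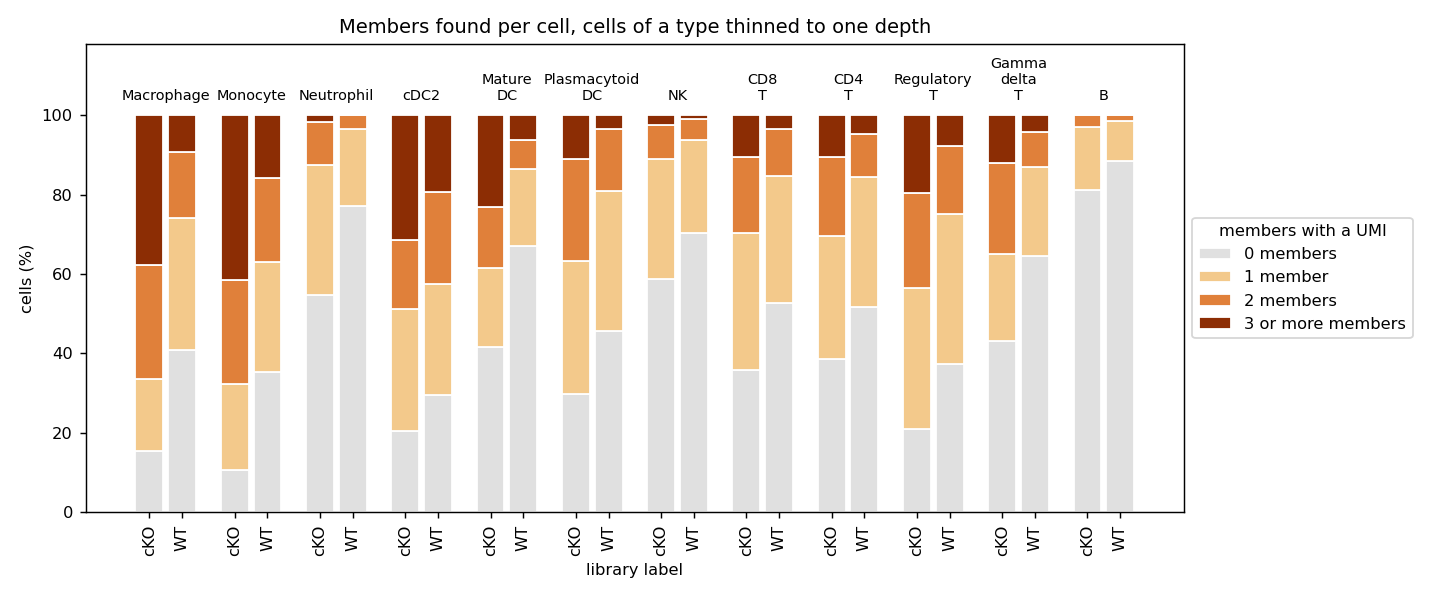
Share of cells (y axis, percent) with UMIs of 0, 1, 2, or 3 or more of the 7 members, for 12 marker-gated cell types with the library labelled cKO left of the library labelled WT, each pair thinned to 1 depth of its own. In every pair the share without any member (light grey) is smaller in the bar labelled cKO; depths differ between cell types, so bars are to be read within pairs.

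The share of cells with several members also differed between the libraries. In thinned monocyte-like cells 3 or more members were detected in 41.5% (39.6 to 43.5) of cells labelled cKO and 15.8% (14.1 to 17.7) of cells labelled WT, and none in 10.7% (cKO) and 35.4% (WT). In macrophage-like cells 3 or more were detected in 37.7% (cKO, 31.8 to 43.9) and 9.29% (WT, 8.08 to 10.6), in regulatory T-like cells in 19.5% (cKO) and 7.69% (WT), and in CD8 T-like cells in 10.5% (cKO) and 3.39% (WT). Within macrophage-like cells labelled cKO, Igtp was found in 55.6% (47.07 to 63.96) of cells with an Irgm1 UMI and 33.9% (25.4 to 43.2) of cells without one. In those labelled WT these shares were 30.1% (26.2 to 34.1) and 18.8% (16.9 to 20.8). In regulatory T-like cells the intervals overlapped: Igtp was found in 52.9% (40.55 to 64.9) of cells labelled cKO with an Irgm1 UMI and 48.1% (40.8 to 55.5) of those without one, and in 39.1% (25.1 to 54.6) and 29.5% (23.7 to 35.9) of such cells labelled WT. The joint detection that independent genes would give was not computed.

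The balance between members had its own pattern over cell types. For each Irgm1 UMI there were 1.99 Igtp UMIs (1.76 to 2.26) in regulatory T-like cells labelled cKO and 2.38 (1.98 to 2.87) in those labelled WT. Monocyte-like cells had 0.477 (cKO, 0.462 to 0.493) and 0.580 (WT, 0.538 to 0.625), and plasmacytoid dendritic cell-like cells 0.417 (cKO) and 0.268 (WT). Iigp1 UMIs per Ifi47 UMI were 0.682 (0.625 to 0.744) in macrophage-like cells labelled cKO and 0.697 (0.657 to 0.740) in those labelled WT. They were 0.208 (cKO) and 0.228 (WT) in monocyte-like cells, 0.618 (cKO) and 0.515 (WT) in regulatory T-like cells, and 0.116 (cKO, 0.104 to 0.129) and 0.138 (WT, 0.104 to 0.181) in CD8 T-like cells. Macrophage-like and monocyte-like cells stood apart in this ratio in each library. The ratios are compared across cell types only, since UMIs of different genes are not on 1 scale of transcripts.

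**Figure D4:**
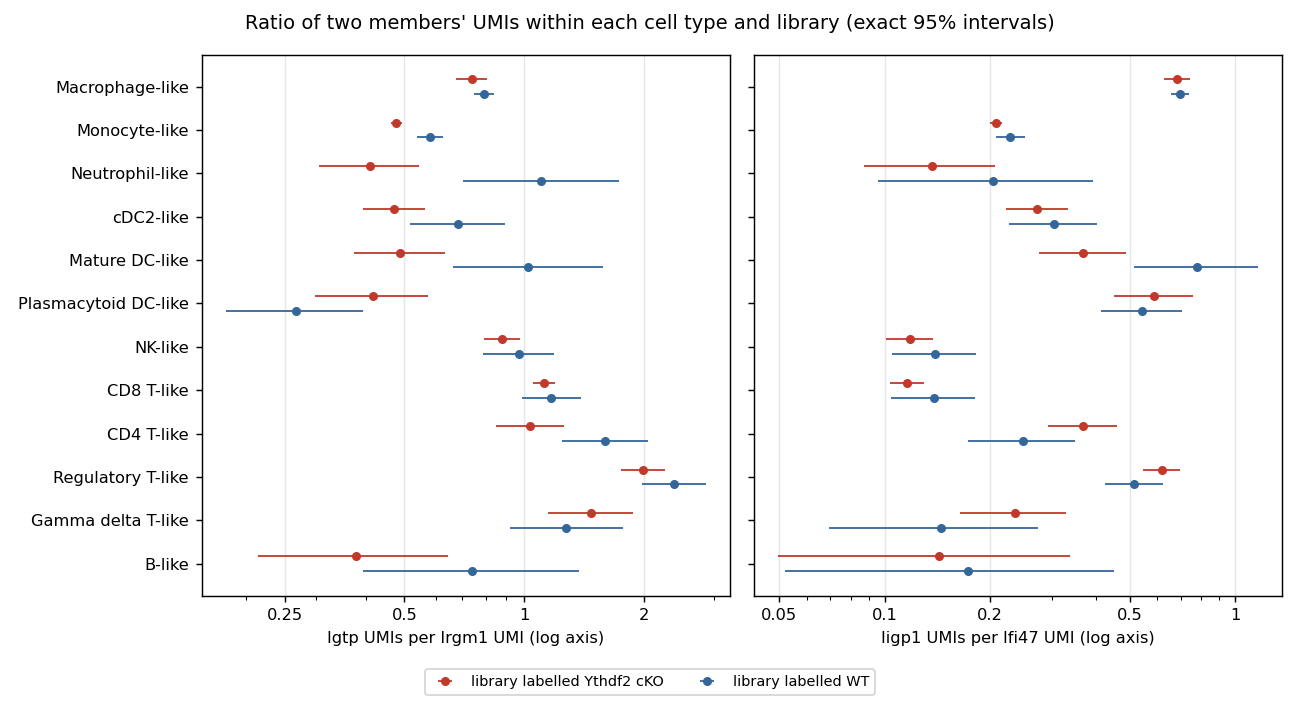
Igtp UMIs per Irgm1 UMI (left) and Iigp1 UMIs per Ifi47 UMI (right) on log axes, in 12 marker-gated cell types of the library labelled Ythdf2 cKO (red, upper) and the library labelled WT (blue, lower), with exact 95% intervals. Regulatory T-like cells are farthest right in the left panel at 1.99 (cKO) and 2.38 (WT). In the right panel macrophage-like cells, at 0.682 (cKO) and 0.697 (WT), are apart from monocyte-like cells, at 0.208 (cKO) and 0.228 (WT).

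Among the genes around the family, the guanylate binding proteins (GBPs), related interferon-induced GTPases that act on the same vacuoles, were also higher. All 7 measured GBPs of at least 10 CPM were at least 1.5-fold higher in macrophage-like cells, 5 of 7 in monocyte-like, 7 of 8 in CD8 T-like, 4 of 8 in NK-like and 3 of 8 in regulatory T-like cells. Over all genes of at least 10 CPM the share higher was 6.68%, 3.19%, 5.87%, 2.48% and 5.71% in these cell types, in that order. Gbp2 was at 313 CPM (cKO) against 75.2 CPM (WT) in macrophage-like and 816 CPM (cKO) against 308 CPM (WT) in monocyte-like cells. Of the other IRG family genes, 3 of 3 measured in macrophage-like cells were higher, among them 9930111J21Rik2, at 84.8 CPM (cKO) against 51.8 CPM (WT), and Gm4951, at 22.2 CPM (cKO) against 11.4 CPM (WT). In monocyte-like cells 1 of 2 measured was higher, and in CD8 T-like, NK-like and regulatory T-like cells none of the 1, 1 and 2 measured were higher.

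Of 19 genes of interferon receptors and signalling, 10 were at least 1.5-fold higher in macrophage-like cells, 5 in monocyte-like, 2 in CD8 T-like, 3 of 18 measured in NK-like and 8 in regulatory T-like cells, and none lower. The shares over all genes were 6.68%, 3.19%, 5.87%, 2.48% and 5.71% in the same order. The 2 of 19 in CD8 T-like cells are above the 5.87% there but rest on 2 genes, so they are not read as a result about the list. Irf1, a transcription factor made under interferon gamma, was at 192 CPM (cKO) against 84.4 CPM (WT) in macrophage-like cells. Irf7, which drives interferon genes, was at 438 CPM (cKO) against 166 CPM (WT), and Usp18, a brake on type I interferon signalling, at 70.9 CPM (cKO) against 25.8 CPM (WT). The receptor gene Ifngr1, at 175 CPM (cKO) against 165 CPM (WT), and the kinase gene Jak1, at 194 CPM (cKO) against 197 CPM (WT), were within 1.5-fold.

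Ifng, which encodes interferon gamma, was at 545 CPM (535 to 556) in CD8 T-like cells labelled cKO and 182 CPM (171 to 194) in those labelled WT, whereas in NK-like cells it was at 203 CPM (cKO, 195 to 211) and 206 CPM (WT, 194 to 218). Ifnb1, a type I interferon gene, was at 53.9 CPM (cKO) and 53.0 CPM (WT) in monocyte-like cells, but differed in both directions elsewhere. It was at 8.31 CPM (cKO) against 1.92 CPM (WT) in NK-like cells and 20.5 CPM (cKO) against 7.84 CPM (WT) in regulatory T-like cells. In macrophage-like cells it was at 30.5 CPM (cKO) against 36.7 CPM (WT), and in cDC2-like cells at 1.31 CPM (cKO) against 16.2 CPM (WT). Whether the ligand levels bear on those of the members was not tested.

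None of the 13 or 14 measured autophagy conjugation genes was 1.5-fold higher or lower in any of these 5 cell types. Gabarap, a member of the ATG8 family that helps to place effector IRGs, was at 716 CPM (cKO) against 705 CPM (WT) in macrophage-like cells. Among 4 ubiquitin ligases and adaptors found at IRG-coated vacuoles, Rnf213 was at 235 CPM (cKO) against 131 CPM (WT) and Trim21 at 16.2 CPM (cKO) against 9.33 CPM (WT) in macrophage-like cells, the 2 of 3 measured that were higher there. None of the 5 or 6 measured reference genes, such as Actb and Gapdh, was 1.5-fold higher or lower in these cell types.

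**Figure D5:**
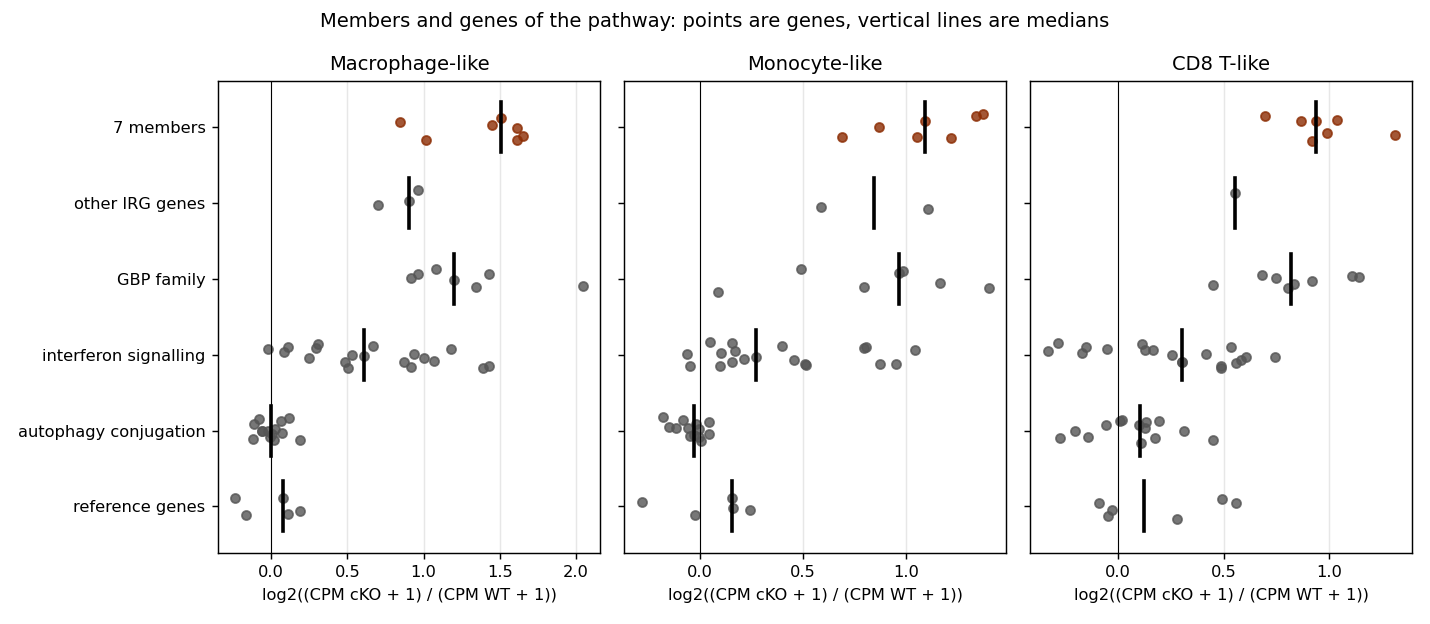
Log2 ratio (x axes, CPM labelled cKO over CPM labelled WT after adding 1 CPM to each) of single genes (points) in macrophage-like, monocyte-like and CD8 T-like cells; the top row holds all 7 members and the other rows the genes of each list with at least 10 CPM in either library, and vertical lines are medians. In macrophage-like cells the members' median is 1.504, that of the GBPs 1.20, that of interferon receptors and signalling 0.61 and that of autophagy conjugation near 0.

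Over the 24 combinations of cell type and library, the genes whose log2 levels correlated best with the mean of the 7 members were Parp9 (Pearson r of 0.917), Dtx3l (0.898), Nmi (0.882), Zbp1 (0.880) and Psmb10 (0.865), followed by Xaf1, Tap2, Ppa1, Tap1 and Psma2 (0.839 to 0.857), among 5106 named genes of at least 50 CPM somewhere. Parp9 and Dtx3l encode partner proteins induced by interferon, Zbp1 a nucleic acid sensor, and Tap1, Tap2 and Psmb10 parts of antigen processing. Among the members themselves r was highest for Irgm1 with Ifi47, at 0.905, and lowest for Iigp1 with Tgtp1, at 0.244. These values are descriptions: the 24 points come from 2 libraries, 12 from each, and share their depth and free RNA. A difference between the libraries also enters r. Over the 12 points of a single library, r was 0.853 (cKO) and 0.880 (WT) for Parp9 and 0.798 (cKO) and 0.896 (WT) for Dtx3l. For Nmi it was 0.885 (cKO) and 0.758 (WT), for Zbp1 0.863 (cKO) and 0.757 (WT), and for Psmb10 0.921 (cKO) and 0.689 (WT).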

How the data were processed

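The deposited values are UMI counts for each gene in each barcode, made by the authors with Cell Ranger 5.0.1 against mm10 per the submitters' processing notes, which also name Seurat 4.0.4. The matrix header names version 5.0.0. The counting options were not given in the sources used here, nor was the annotation release. GRCm38 coordinates came from GENCODE vM21, which held 30934 of the 31053 gene identifiers.

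Barcodes with under 200 genes or over 10% mitochondrial UMIs were left out. Cells entered 13 gates by summed marker rates per 10000 UMIs, with at least 3 markers of a type detected (4 for macrophages and monocytes) and limits on markers of other lineages, which also served against doublets. The thresholds were set after marker distributions were seen. The ending "-like" marks that types rest on RNA alone, and they may differ from the study's own. Melanocytic cells were not compared, as there were fewer than 50 in 1 library. Scrublet in scanpy 1.11.5 called 0 (cKO) and 2 (WT) doublets automatically, which is a failed threshold, so its highest scores at 0.8% per 1000 cells were removed only as an alternative.

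UMIs were summed per gate and library, and 12 cell types were compared in Python 3.11.15 with numpy 2.4.6 and scipy 1.17.1. Intervals are exact Poisson for CPM, exact binomial for ratios and Clopper-Pearson for shares, at 95%. A count of 3 was the floor under which no ratio is given. For thinning, the depth at percentile 20 was taken in both libraries of a cell type and the smaller one used. All 7 members were named throughout, with the 10 genes most correlated with their mean among genes of at least 50 CPM, and lists of other IRG, GBP, interferon signalling, interferon ligand, autophagy, ubiquitin and reference genes were counted whole. The members and lists were chosen with earlier results of these data known. Alternatives were Leiden clusters, stricter lineage exclusion, 500 genes, 5% mitochondrial UMIs, doublet removal, size factors, equal weight per cell, thinning, a pseudocount of 10 CPM, Tgtp1 and Tgtp2 summed, a 2-fold rule and filters on low values.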

Additional observations from a re-analysis of the deposited data

Results flagged for a closer look

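Cells in the melanocytic gate, 20 labelled cKO and 209 labelled WT, were too few to compare and were used in no comparison above. Members were present in them, and their values are given as a description. Irgm1 was at 95.1 CPM (80.1 to 112) in those labelled cKO and 53.5 CPM (49.2 to 58.1) in those labelled WT. Iigp1 was at 48.2 CPM (cKO) against 29.7 CPM (WT), Ifi47 at 36.2 CPM (cKO) against 22.1 CPM (WT), Tgtp2 at 8.71 CPM (cKO) against 2.62 CPM (WT) and Igtp at 44.9 CPM (cKO) against 31.3 CPM (WT). Irgm2 was at 14.7 CPM (cKO) against 14.97 CPM (WT). Tgtp1 had 3 (cKO) and 6 (WT) UMIs. In the same cells C1qa was at 151 CPM (cKO) against 89.1 CPM (WT) and Lyz2 at 155 CPM (cKO) against 309 CPM (WT). Their part in these values was not tested.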

How the results depend on the processing

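No paired analysis was possible because there is 1 library per label. Of 142 alternative counts of members at least 1.5-fold higher, 130 were within 1.5 times the main count, and all 142 alternative medians (members of at least 10 CPM) were above 0. The filter behind these medians can admit a member through the library where it is high. With Leiden clusters the median was 1.386 in macrophage-like cells (1.61 in the main setting), 0.9614 in cDC2-like (0.57) and 0.4872 in CD8 T-like cells (0.95), where 3 members were higher. With stricter lineage exclusion the median was 1.002 in monocyte-like (1.15), 0.1224 in cDC2-like and 0.7862 in CD8 T-like cells, and the counts were 2 in cDC2-like, 3 in plasmacytoid dendritic cell-like and 4 in CD8 T-like cells. After thinning the median was 1.434 in macrophage-like, 0.5852 in NK-like (0.78) and 0.6911 in CD8 T-like cells, and the counts were 3 in neutrophil-like and 1 in B-like cells. With 10 CPM added it was 1.412, 0.9898 and 0.6794 in macrophage-like, monocyte-like and CD8 T-like cells. In macrophage-like cells it was 1.377 with equal weight per cell and 1.504 over all members. Without cells near a threshold it was 1.675 in mature dendritic cell-like cells (1.14). Under a 2-fold rule 2 members were higher in plasmacytoid dendritic cell-like, 1 in NK-like, 2 in CD8 T-like, 2 in CD4 T-like and 1 in regulatory T-like cells. Among members of at least 10 CPM, 2 were higher in B-like cells. Of 826 values of single members, 30 changed sign, 25 of them to below 0, and none of these was in macrophage-like, monocyte-like or CD8 T-like cells. From values short of 1.5-fold came 24, among them Irgm2 in neutrophil-like cells under 4 settings and Tgtp1 in B-like cells under 5. The other 6 were Iigp1 in neutrophil-like cells after thinning (−0.3476), Irgm2 in B-like cells with stricter exclusion (−0.4988), and Irgm2 in plasmacytoid dendritic cell-like cells with Leiden clusters (−2.533), stricter exclusion (−1.206), equal weight per cell (−0.3178) and cells near a threshold left out (−1.021). In plasmacytoid dendritic cell-like cells Irgm2 had 10 UMIs in each library in the main setting. In B-like cells Irgm2 had 3 (cKO) and 1 (WT) UMIs and Tgtp1 had 1 in each library, too few for a ratio, so their changes of sign carry no reading. The causes were not tested. Of the 10 genes most alike, 7 were also among the first 10 by rank correlation. Stricter exclusion was not run for neutrophil-like and mature dendritic cell-like cells, with under 50 cells in a library. Low UMI counts limit Tgtp1, Tgtp2 and Irgm2, and sequence shared with other genes limits Tgtp1 and Tgtp2.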
